A study of Mus musculus with 15 samples.

Results

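Leukocyte integrins were compared over 5 murine mononuclear phagocyte subtypes sorted from spleen and lung-draining lymph nodes (LNs). The 10 members were chosen by symbol, 10 of the 38924 genes in the count table: the α chains Itgal, Itgam, Itgax, Itgad, Itgae and Itga4 and the β chains Itgb1, Itgb2, Itgb3 and Itgb7. All 10 passed the filter on low counts (above 1 CPM in 3 libraries or more), where CPM are read counts scaled to a common library size and composition, and so did 14456 genes in all. The subtypes were splenic CD8+ dendritic cells (DCs, a DC1 population), splenic CD4+ DCs (DC2), splenic Ly6C+ monocytes, LN CD103+ DCs (DC1) and LN CD11b+ DCs (DC2), with 3 libraries each and 15 in all. All cells came from naïve, untreated female C57BL/6 mice aged 6 to 8 weeks per the labels, with no transgene in any group, and each library held cells pooled from 5 mice. LN and spleen cells came from different cohorts, so organ and cohort cannot be told apart, and p-values measure the spread between pools. In bulk libraries such as these, fewer cells of a type and less RNA per cell cannot be told apart.

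The sort itself used 3 members as surface proteins. LN DCs were gated as CD11c+ and MHC class II high and then split by CD103 against CD11b. Splenic DCs were gated as CD11c+ MHC class II+ and split by CD8 against CD11b, and monocytes were enriched with CD11b beads and gated as Ly6C+ MHC class II low. CD11b is the product of Itgam, CD11c of Itgax and CD103 of Itgae, so the values of these genes along those gates are descriptions of the sorted cells.

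Integrins are receptors made of an α and a β chain that hold cells to other cells and to the extracellular matrix, and neither chain normally reaches the surface without its partner. The β2 chain (Itgb2, CD18) pairs with αL (Itgal, giving LFA-1), αM (Itgam, Mac-1), αX (Itgax, CD11c) and αD (Itgad). These leukocyte receptors bind ICAMs and, for αM and αX, complement fragments. The last 3 also bind other proteins. The β7 chain (Itgb7) pairs with αE (Itgae, CD103), which binds E-cadherin, or with α4 (Itga4), which also pairs with β1 (Itgb1) to make VLA-4, a receptor for VCAM-1 and fibronectin. The β3 chain (Itgb3) pairs with αV (Itgav) or, in platelets, with αIIb (Itga2b). LFA-1 and VLA-4 arrest monocytes on vessel walls, whereas DCs can move through tissue to LNs largely without integrins.

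Promoter sequence is shown for 3 members because their transcripts behaved differently in the subtypes described further on: Itgam followed the CD11b gate, Itgax was the leading β2 partner in DCs, and Itgb1 was higher in LN than in splenic DCs. The windows are the 250 bases before the annotated start in the RefSeq table (build GRCm38.p6, plus strand of the genome and of all 3 genes), and 5 of the 10 members had such a window (these 3, Itga4 and Itgb7). Capitals mark matches on either strand to 4 motifs, PU.1 (GAGGAA), RUNX (TGTGGT), the GC box (GGGCGG) and the TATA box (TATAAA).
Itgam chr7:128062390-128062639: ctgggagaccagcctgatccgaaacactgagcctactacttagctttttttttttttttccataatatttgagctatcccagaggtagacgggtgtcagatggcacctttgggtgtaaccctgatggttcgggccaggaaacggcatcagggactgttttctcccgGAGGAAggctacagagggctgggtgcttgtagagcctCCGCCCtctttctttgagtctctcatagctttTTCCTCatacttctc
Itgax chr7:128129300-128129549: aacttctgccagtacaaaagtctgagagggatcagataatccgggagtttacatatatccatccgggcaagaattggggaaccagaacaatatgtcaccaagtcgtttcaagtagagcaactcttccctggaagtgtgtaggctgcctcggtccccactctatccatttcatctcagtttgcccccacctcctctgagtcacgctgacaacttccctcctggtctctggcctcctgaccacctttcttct
Itgb1 chr8:128685404-128685653: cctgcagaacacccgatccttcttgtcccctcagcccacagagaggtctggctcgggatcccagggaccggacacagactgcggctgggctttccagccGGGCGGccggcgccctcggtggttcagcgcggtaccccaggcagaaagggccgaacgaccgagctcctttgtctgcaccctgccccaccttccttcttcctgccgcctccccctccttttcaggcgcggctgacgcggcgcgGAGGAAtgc

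The Itgam window held the PU.1 letters 84 bases before the start on the gene's strand and 15 bases before it on the other strand, and the GC box letters 47 bases before it on the other strand. The Itgb1 window held the PU.1 letters 9 bases and the GC box letters 151 bases before the start. No motif was found in the Itgax or Itgb7 windows, and the Itga4 window held RUNX letters 60 bases before the start on the other strand and a GC box 114 bases before it. No matches overlapped. Across all 32851 windows of this length, 23.3% held PU.1, 14% RUNX, 32.7% the GC box and 12.4% the TATA box. The matches are letters in a window, not measured binding.

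Total counts ran from 4531243 to 10233914 per library. The summed level of 5 DC1 markers was 3324 to 5110 CPM in splenic CD8+ DCs and 775 to 1081 in LN CD103+ DCs. It was 131 to 157 and 282 to 439 in the splenic and LN DC2, and 478 to 594 in monocytes. Irf8 had the highest mean of the 5 in those DC1 groups and in monocytes (2486, 613 and 522 CPM). Between the LN groups Batf3 differed little, with means of 83.6 CPM in CD103+ and 74.5 in CD11b+ DCs. Xcr1, Clec9a and Cadm1 differed more, at 34.5 to 98.2 against 3.08 to 16.5. For 5 DC2 markers the sums were 1316 to 2242 CPM in splenic CD4+ DCs and 740.0 to 797.8 in LN CD11b+ DCs. They were 168 or less in both DC1 groups and 1232 to 1427 in monocytes, with Clec4a4 at 0 in LN CD103+ DCs. Sirpa had the highest mean of the 5 in splenic CD4+ DCs, LN CD11b+ DCs and monocytes (1506, 613 and 1311 CPM). Irf4 had means of 37.6 CPM in LN CD103+, 43.9 in splenic CD4+ and 72.75 in LN CD11b+ DCs. Sirpa, Cd4, Clec4a4 and Mgl2 had means of at most 12.4 CPM in LN CD103+ DCs. For 5 monocyte markers the sums were 8368 to 10226 CPM in monocytes and at most 760.0 elsewhere. For 3 markers of migratory DCs they were 5577 to 12709 in LN DCs and at most 349 elsewhere. Markers of other cells were unevenly spread. All 6 T cell markers had counts in both LN groups, summing to 67.7 to 132 CPM, against at most 9.80 in the spleen groups. In LN CD103+ and CD11b+ DCs Lck had means of 49.2 and 39.4 CPM and Cd28 14.7 and 16.3. Trac and the CD3 genes Cd3d, Cd3e and Cd3g had 3.30 to 20.6 there. Markers of NK cells (5) summed to 17.9 to 118 CPM over all libraries, mostly Klrk1, and those of plasmacytoid DCs (5) to 108 to 280. All 7 neutrophil markers had counts in monocytes, summing to 225 to 346 CPM, against at most 5.75 in any DC library. That sum came from the granule genes Camp, Ngp, Ltf and Mmp8 (means 25.3 to 99.3 CPM), while Ly6g (4 counts), Retnlg (5 counts) and Cxcr2 (12 counts) were near 0. For 9 macrophage markers the sums were 1070 to 1353 CPM in splenic CD4+ DCs and 649 to 960 in LN CD11b+ DCs. They were 557 to 648 in monocytes and 186 to 291 in both DC1 groups, the groups low in Itgam. In splenic CD4+ DCs, LN CD11b+ DCs and monocytes Adgre1 had means of 664, 117 and 415 CPM. Vcam1 had 321, 266 and 7.90, C1qb 70.5, 205 and 7.14 and Fcgr1 5.14, 15.9 and 134. Mertk, Spic and Cd5l had means of at most 25.6 CPM in these groups. B cell markers (5) summed to 218 CPM in LN CD103+ replicate 1 and at most 87.9 in the libraries of other subtypes, and 6 erythroid markers to between 28.7 and 238 in splenic DCs and at most 58.5 elsewhere. T cells carry αL, α4, β1, β2 and β7, neutrophils αL, αM and β2, and macrophages αM and β2, so these values stand beside the results below. The sort gated lineage-negative cells, with antibodies to CD3, B220, NK1.1 and Ly6G. The part of these cells in the results was not tested.

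**Figure D1:**
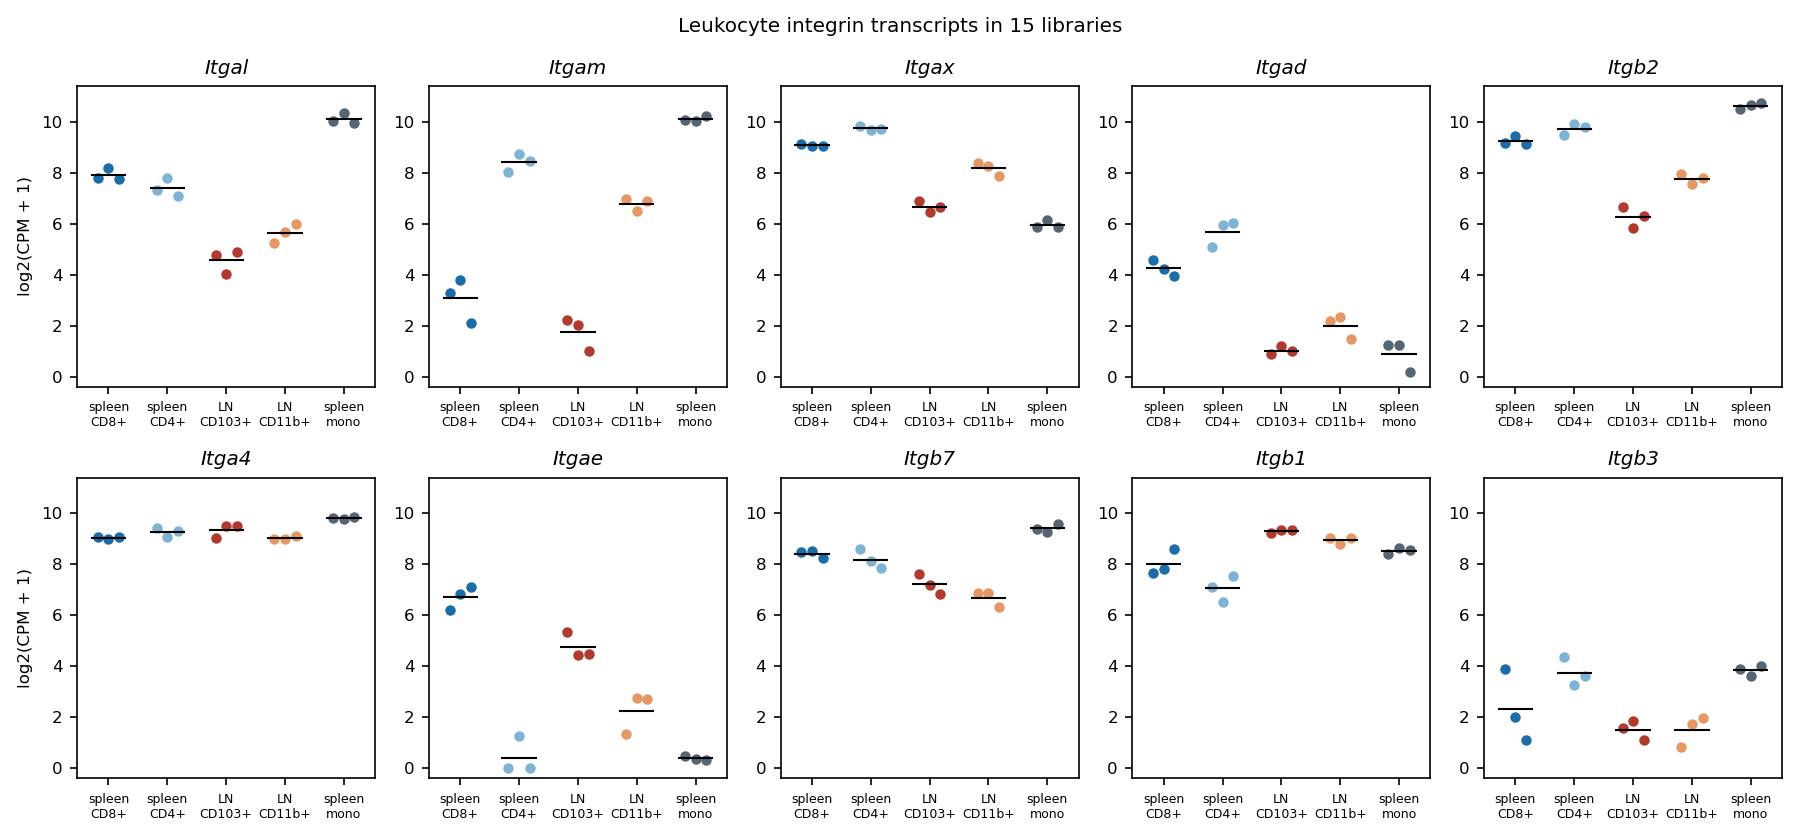
Level of each of the 10 integrin genes in every library, as log2(CPM + 1) with 1 panel per gene and the 5 subtypes on the x axis. Points are libraries (3 per subtype) and the short line is the mean of the log2 values. Itgam, Itgal and Itgb2 peak in monocytes, Itgb1 in LN DCs, and Itga4 stays within 503 to 913 CPM throughout.

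All 10 members differed over the 5 subtypes in the F test, where 73.5% of all tested genes did. Adjusted p (edgeR quasi-likelihood, Benjamini-Hochberg over all tested genes) ran from 7.65e-12 for Itgam to 0.00264 for Itga4. Their ranges differed widely. The highest subtype mean exceeded the lowest by 430.1-fold for Itgam and 337-fold for Itgae, by 13.9- to 54.9-fold for Itgax, Itgb2, Itgal and Itgad, by 4.58- to 7.09-fold for Itgb1, Itgb7 and Itgb3, and by 1.72-fold for Itga4. Of the 10 pairs of subtypes, Itgam and Itgax differed in all 10, and Itgal, Itgad, Itgae and Itgb2 in 9. Itgb7 differed in 8, Itgb1 in 7, and Itga4 and Itgb3 in 4. Itgam, Itgax and Itgae encode proteins used in the sort, so their places in these orders partly describe the gates. The lowest means of Itgae and Itgad, both in monocytes, rest on 7 and 22 counts, so these folds are imprecise.

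Most members differed between the organs. In LN CD103+ DCs against splenic CD8+ DCs, the DC1 pair, 7 members were lower, 1 was higher and 2 did not pass, against 45.6% of all genes called. In LN CD11b+ DCs against splenic CD4+ DCs, the DC2 pair, 7 were lower, 2 higher and 1 did not pass, against 33.1% of all genes. Itgam, Itgax, Itgal, Itgad, Itgb2 and Itgb7 were lower in LN DCs of both lineages, and Itgb1 was higher in both. The median log2 difference over the 10 members was -1.60 in the DC2 pair, where that of all tested genes was 0.05, and -1.82 in the DC1 pair, where it was 0.005. Across lineages, LN CD103+ DCs against splenic CD4+ DCs gave 2 members higher and 7 lower (47% of all genes called). LN CD11b+ DCs against splenic CD8+ DCs gave 2 higher and 6 lower (39.9%). In both comparisons across lineages the Itgam call lies along the CD11b gates.

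Itgb2, the chain shared by the whole β2 family (chromosome 10, 77530252 to 77565708, plus strand, mm10), was highest in monocytes at 1441, 1594 and 1686 CPM in replicates 1 to 3. Splenic CD4+ DCs gave 717, 956 and 882 CPM and splenic CD8+ DCs 574, 698 and 552. In LN CD11b+ DCs the values were 243, 187 and 219.7 CPM and in LN CD103+ DCs 98.5, 55.7 and 77.4. No LN library reached a splenic DC library, and the order of the subtype means held in the test for every neighbouring pair except the 2 splenic DC groups, which did not pass (log2 difference of CD8+ minus CD4+ -0.49 ± 0.209 SE, adjusted p = 0.0913, or 0.0362 by DESeq2). Mean Itgb2 was 7.87-fold higher in splenic CD8+ than LN CD103+ DCs (log2 difference of LN minus spleen -2.98 ± 0.225, adjusted p = 5.82e-09) and 3.94-fold higher in splenic CD4+ than LN CD11b+ DCs (-1.98 ± 0.216, adjusted p = 1.19e-06).

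Itgal, the LFA-1 α chain (chromosome 7, 127296260 to 127335137, plus strand), followed the same order of organs. Monocytes gave 1043, 1286 and 999 CPM, splenic CD8+ DCs 221, 293 and 213, and splenic CD4+ DCs 158, 222 and 133. LN CD11b+ DCs gave 37.1, 49.6 and 61.9 CPM and LN CD103+ DCs 26.4, 15.4 and 28.5. Monocytes stood far above all DCs, at 4.58 times the mean of splenic CD8+ DCs (log2 difference 2.19 ± 0.259, adjusted p = 1.44e-06) and 6.48 times that of splenic CD4+ DCs. The DC1 pair differed 10.3-fold between spleen and LN (LN minus spleen -3.38 ± 0.278, adjusted p = 1.51e-08) and the DC2 pair 3.46-fold. The splenic DC groups overlapped and did not pass (0.50 ± 0.25, adjusted p = 0.147), while in the LN Itgal was lower in CD103+ than in CD11b+ DCs (-1.08 ± 0.263, adjusted p = 0.00934). Without LN CD103+ replicate 2 that last difference was -0.84 (adjusted p = 0.068).

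Itgam, the Mac-1 α chain (chromosome 7, 128062640 to 128128160, plus strand), tracked the CD11b gates. Monocytes gave 1064, 1054 and 1179 CPM, splenic CD4+ DCs 259.8, 429 and 352, and LN CD11b+ DCs 123, 89.7 and 118. Both CD11b-low groups were near the floor, with 8.85, 13 and 3.32 CPM in splenic CD8+ DCs and 3.63, 3.04 and 0.994 in LN CD103+ DCs. The DC1 minus DC2 difference was -5.38 on the log2 scale in the spleen (SE 0.400) and -5.38 in the LN (SE 0.426), a description of the gate. Among the 3 groups gated or enriched as CD11b positive, splenic CD4+ DCs held 3.15 times the Itgam of LN CD11b+ DCs (adjusted p = 0.000763) and monocytes 3.17 times that of splenic CD4+ DCs (log2 difference 1.66 ± 0.331, adjusted p = 0.000454). The beads that enriched these cells differed, CD11b for monocytes and CD11c for DCs.

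Itgax, the gene of the DC marker CD11c (chromosome 7, 128129547 to 128150656, plus strand), had the reverse place for monocytes. Splenic CD4+ DCs gave 918, 808 and 834 CPM, splenic CD8+ DCs 561, 528 and 534, and LN CD11b+ DCs 335, 308 and 232. LN CD103+ DCs gave 118, 87.4 and 98.9 CPM, only moderately above the 57.0, 69.7 and 57.8 of monocytes, which were not selected for CD11c (log2 difference of monocytes minus LN CD103+ DCs -0.72, adjusted p = 0.00298). No 2 groups overlapped, and each neighbouring pair in this order differed. All 4 DC groups were enriched and gated as CD11c positive, and within them the spleen held 5.33 times the LN mean in DC1 (LN minus spleen -2.42 ± 0.191, adjusted p = 9.44e-09) and 2.93 times in DC2 (-1.55 ± 0.185, adjusted p = 3.39e-06).

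Itgad, encoding αD (chromosome 7, 128154376 to 128223816, plus strand), was a low-level splenic DC transcript. Splenic CD4+ DCs gave 33.4, 60.2 and 64.1 CPM and splenic CD8+ DCs 23.1, 17.5 and 14.3. LN CD11b+ DCs gave 3.55, 4.11 and 1.77 CPM, LN CD103+ DCs 0.837, 1.29 and 0.994, and monocytes 1.38, 1.36 and 0.132, the last resting on 7, 14 and 1 counts. The spleen to LN ratio of means was 17.6 in DC1 (LN minus spleen -4.10 ± 0.470, adjusted p = 1.03e-06) and 16.7 in DC2 (-4.01 ± 0.424, adjusted p = 8.05e-07). Monocytes and LN CD103+ DCs were not separated by the test (adjusted p = 0.855). Of the Itgad exon bases, 69 (1.53%) are also exon of Cox6a2 on the other strand, and reads there were counted for both genes.

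The level of each α chain relative to the others can be read from TPM, in which counts are put on a common length as well as a common total. That length covers all annotated exons of a gene and not the transcript form in use. Shares and ratios between genes, here and below, are therefore not counts of molecules. Of the summed TPM of the 4 β2 partners, Itgax made up 75.6% ± 3.48 (SD, n = 3) and 69.5% ± 6.15 in splenic CD8+ and CD4+ DCs. Its share was 85.4% ± 1.85 for LN CD103+ and 73.3% ± 5.70 for LN CD11b+ DCs. In monocytes it made up 4.20% ± 0.251, where Itgal held 48.0% ± 4.23 and Itgam 47.8% ± 4.5 in near equal parts. The second α chain by share was Itgal in DC1 (21.4% ± 3.26 in the spleen, 12.4% ± 2.75 in the LN). In DC2 it was Itgam (17.8% ± 3.93 and 17.8% ± 3.64). DC1 and DC2 were split by CD11b, so this order describes the gate. Itgal itself was not called higher in DC1 in either organ. The Itgax and Itgam shares in DC2 differed by less than 1 SD between the organs, while the summed TPM was 755 ± 63.1 in the spleen and 234 ± 25.1 in the LN. Itgad held 3.83% ± 1.21 in splenic CD4+ DCs and 0.701% ± 0.233 in LN CD11b+ DCs. The 4 α chains summed to 0.703 ± 0.0516 times the Itgb2 TPM in monocytes. In the CD8+ and CD4+ DCs of the spleen that ratio was 0.896 ± 0.0862 and 1.10 ± 0.151, and in the CD103+ and CD11b+ DCs of the LN 1.19 ± 0.155 and 1.39 ± 0.212. The α sum itself ranged from 66.4 ± 11.2 TPM in LN CD103+ DCs to 933 ± 27.1 in monocytes.

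**Figure D2:**
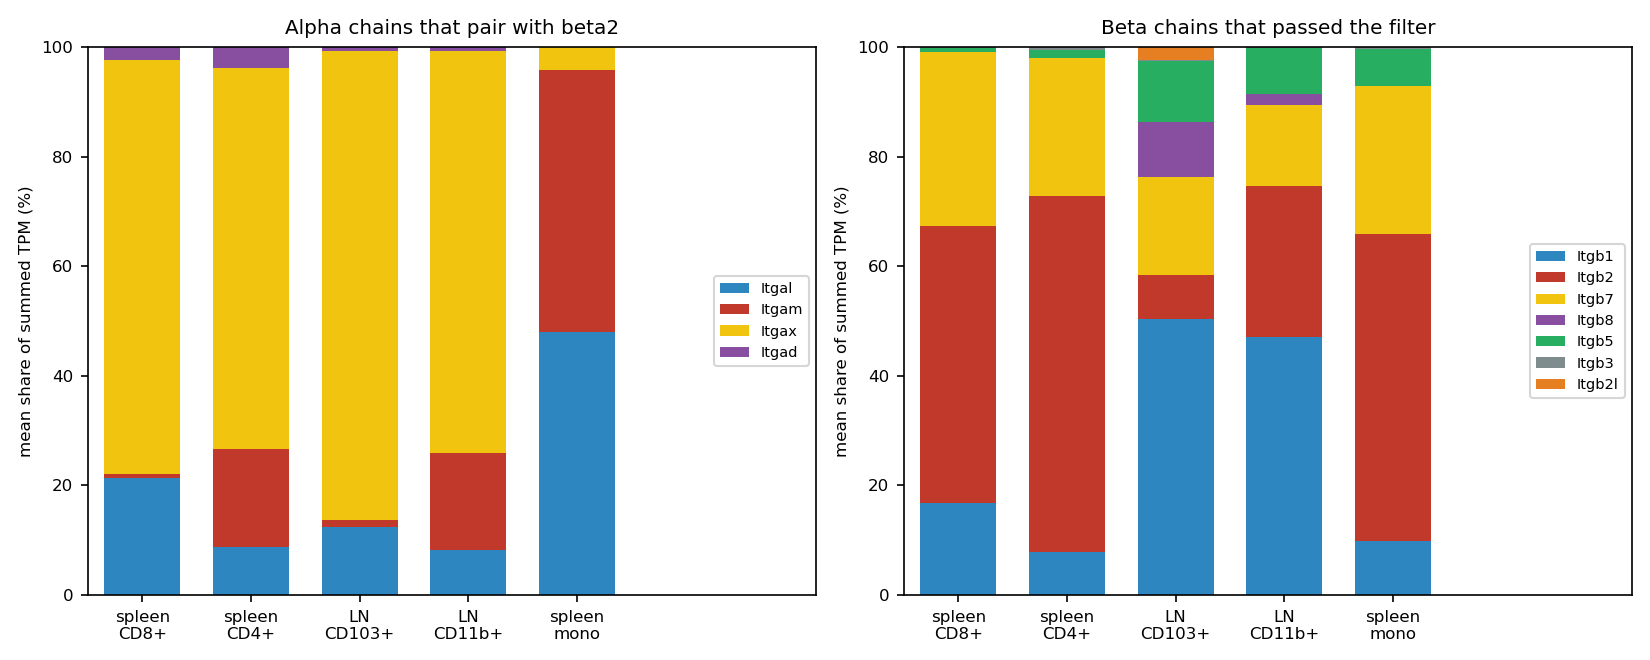
Stacked bars of the mean share, in percent of summed TPM (3 libraries per subtype), of the 4 α chains that pair with β2 and of 7 β chains in the 5 subtypes. Itgax fills 69.5 to 85.4% of the α sum in DCs and 4.20% in monocytes, and Itgb1 fills 50.3 and 47.1% of the β sum in LN DCs and at most 16.8% elsewhere. Bars start at 0, and SDs are given in the text.

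Itgae, encoding CD103 (chromosome 11, 73090583 to 73147446, plus strand), was higher in splenic CD8+ DCs, which were not sorted on it, than in LN CD103+ DCs, which were. Splenic CD8+ DCs gave 71.8, 113 and 135 CPM and LN CD103+ DCs 39.6, 20.8 and 21, with no overlap and a ratio of means of 3.93 (log2 difference of LN minus spleen -1.97 ± 0.445, adjusted p = 0.00131). LN CD11b+ DCs held 1.51, 5.72 and 5.53 CPM. Monocytes held 2, 3 and 2 counts (0.393, 0.292 and 0.263 CPM), and in splenic CD4+ DCs replicates 1 and 3 were at 0 while replicate 2 held 8 counts (1.36 CPM). Against the mean of all 3 splenic CD4+ libraries, which rests on those 8 counts, splenic CD8+ DCs held 234.6 times, LN CD103+ DCs 59.8 times and LN CD11b+ DCs 9.35 times as much (for the last, log2 difference 3.24 ± 0.778, adjusted p = 0.00325). Against the 2 libraries at 0 alone, with a floor of 3 counts over both (0.218 CPM), the folds were at least 489, 125 and 19.5. LN CD103+ DCs held 6.39 times the mean of LN CD11b+ DCs, along the CD103 gate. Haspin lies within an Itgae intron and shares no exon base with it.

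Itgb7, the partner of αE and α4 (chromosome 15, 102215995 to 102231935, minus strand), was expressed in all subtypes. Monocytes gave 674, 612 and 754 CPM, splenic CD8+ DCs 359, 365 and 298 and splenic CD4+ DCs 381, 277 and 229.6. LN CD103+ DCs gave 194, 145 and 113 CPM and LN CD11b+ DCs 117, 116 and 78.2. Every LN library lay below every splenic DC library, and every monocyte library above all DCs. The LN minus spleen difference was -1.18 ± 0.234 in DC1 (adjusted p = 0.00043) and -1.51 ± 0.236 in DC2 (adjusted p = 6.53e-05), and neither the splenic nor the LN lineage difference passed (adjusted p = 0.555 and 0.15). The log2 difference of monocytes minus splenic CD8+ DCs was 0.997 ± 0.232 (adjusted p = 0.00184). The summed TPM of Itga4 and Itgae was 0.260 ± 0.0205 of the Itgb7 TPM in monocytes, 0.498 ± 0.107 and 0.428 ± 0.102 in splenic CD8+ and CD4+ DCs, and 1.03 ± 0.366 and 1.05 ± 0.307 in LN CD103+ and CD11b+ DCs.

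Itga4 (chromosome 2, 79255426 to 79333123, plus strand), whose product makes VLA-4 with β1 and α4β7 with β7, was the flattest member. Splenic CD8+ DCs gave 541, 508 and 529.6 CPM, splenic CD4+ DCs 685, 542 and 637, LN CD103+ DCs 519, 717 and 731 and LN CD11b+ DCs 503, 513 and 543. Monocytes, at 904, 866 and 913 CPM, were above every DC library. All 4 comparisons of monocytes with DCs passed, by 0.45 to 0.78 on the log2 scale (adjusted p 0.00118 to 0.0377), and no pair of DC groups did. The call against LN CD103+ DCs was lost without LN CD103+ replicate 1 (0.30, adjusted p = 0.191) or any of the monocyte libraries (adjusted p 0.0645 to 0.0906), and that against splenic CD4+ DCs without splenic CD4+ replicate 2 or monocyte replicate 3 (0.067 and 0.0538). For the DC1 and DC2 organ pairs the log2 differences were 0.32 (adjusted p = 0.149) and -0.26 (adjusted p = 0.284). An overlap of 1124 exon bases (8.04%) with Cerkl on the other strand was counted for both genes.

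Itgb1 (chromosome 8, 128685654 to 128733200, plus strand) encodes the β chain of VLA-4 and of the collagen and laminin receptors. It was higher in LN than in splenic DCs, while Itgb2 and its α partners were lower in LN DCs. LN CD103+ DCs gave 596, 648 and 652 CPM and LN CD11b+ DCs 518, 448 and 515. Monocytes gave 341, 396 and 375 CPM, splenic CD8+ DCs 198, 221 and 388 and splenic CD4+ DCs 136, 91.7 and 186. Every LN library was above every spleen library, while the spread of splenic CD8+ DCs (SD 104 CPM) was set by replicate 3. LN exceeded spleen 2.35-fold in DC1 (log2 difference 1.23 ± 0.254, adjusted p = 0.000583) and 3.58-fold in DC2 (1.84 ± 0.259, adjusted p = 2.13e-05). The neighbours in the order LN CD103+, LN CD11b+, monocytes, splenic CD8+ DCs were not separated by the test (adjusted p = 0.408, 0.182 and 0.15). Splenic CD8+ exceeded CD4+ DCs by 0.96 ± 0.253 (adjusted p = 0.00837), a difference of 0.60 (adjusted p = 0.0806) without splenic CD8+ replicate 3. The TPM ratio of Itgb1 to Itga4 was 3.36 ± 0.494 and 3.26 ± 0.268 in LN CD103+ and CD11b+ DCs, 1.75 ± 0.668 and 0.754 ± 0.220 in splenic CD8+ and CD4+ DCs, and 1.42 ± 0.138 in monocytes.

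Itgb3 (chromosome 11, 104608000 to 104670476, plus strand) was low everywhere. Monocytes gave 13.8, 11.3 and 15.3 CPM, splenic CD4+ DCs 19.5, 8.52 and 11.3, and splenic CD8+ DCs 13.6, 2.97 and 1.15. LN CD103+ DCs gave 1.95, 2.57 and 1.16 CPM and LN CD11b+ DCs 0.753, 2.35 and 2.87. No neighbouring pair in this order passed the test, but monocytes exceeded both LN groups (log2 difference 2.79, adjusted p = 0.00175, and 2.82, adjusted p = 0.00222) and LN CD11b+ DCs lay below splenic CD4+ DCs (-2.79 ± 0.684, adjusted p = 0.00379). The splenic CD8+ mean of 5.91 ± 6.74 CPM was set by replicate 1. Without that library the CD8+ minus CD4+ difference, -1.15 (adjusted p = 0.171), became -2.69 (adjusted p = 0.00227), and monocytes exceeded splenic CD8+ DCs (2.71, adjusted p = 0.00103). Platelets carry β3. Of 10 platelet markers, Gp5 and Gp6 were at 0 in every library. Splenic CD8+ DCs had 0 counts of Pf4 but 47 of Gp9, 26 of Itga2b and 13 of Gp1ba, each more than any other subtype. Itga2b was at 0 in splenic CD4+ DCs. The summed level was 0.875 to 1.97 CPM in monocytes and 2.45 to 6.16 in splenic CD4+ DCs. It was 21.3 to 22.9 in splenic CD8+ DCs, there mostly Clec1b (mean 18.6). The part of platelets in the Itgb3 values was not tested.

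The balance of β chains therefore differed between LN and spleen. Of the summed TPM of 7 β chains (a sum chosen after the members' values were seen), Itgb1 made up 50.3% ± 3.85 (SD, n = 3) and 47.1% ± 3.18 in LN CD103+ and CD11b+ DCs. It held 16.8% ± 6.73 and 7.92% ± 2.82 in splenic CD8+ and CD4+ DCs and 9.89% ± 0.643 in monocytes. Single libraries lay between 44.6 and 53.0% in the LN and between 5.05 and 24.6% elsewhere. Itgb2 held 50.6% ± 3.80, 64.8% ± 7.40 and 56.1% ± 0.901 in the 3 spleen groups, in that order, against 8.17% ± 2.09 in LN CD103+ and 27.5% ± 2.29 in LN CD11b+ DCs. Itgb7 lay between 14.7% ± 2.96 in LN CD11b+ DCs and 31.6% ± 3.51 in splenic CD8+ DCs. The TPM ratio of Itgb1 to Itgb2 was 6.51 ± 2.09 in LN CD103+ DCs and 1.71 ± 0.103 in LN CD11b+ DCs. In splenic CD8+ DCs, splenic CD4+ DCs and monocytes it was 0.340 ± 0.161, 0.124 ± 0.0458 and 0.176 ± 0.00985. Further β chains measured in the LN were Itgb5 at 11.04% ± 0.320 and 8.34% ± 2.53, and Itgb8, an activator of TGF-β as αVβ8, at 10.19% ± 1.74 in CD103+ and 2.09% ± 0.432 in CD11b+ DCs.

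**Figure D3:**
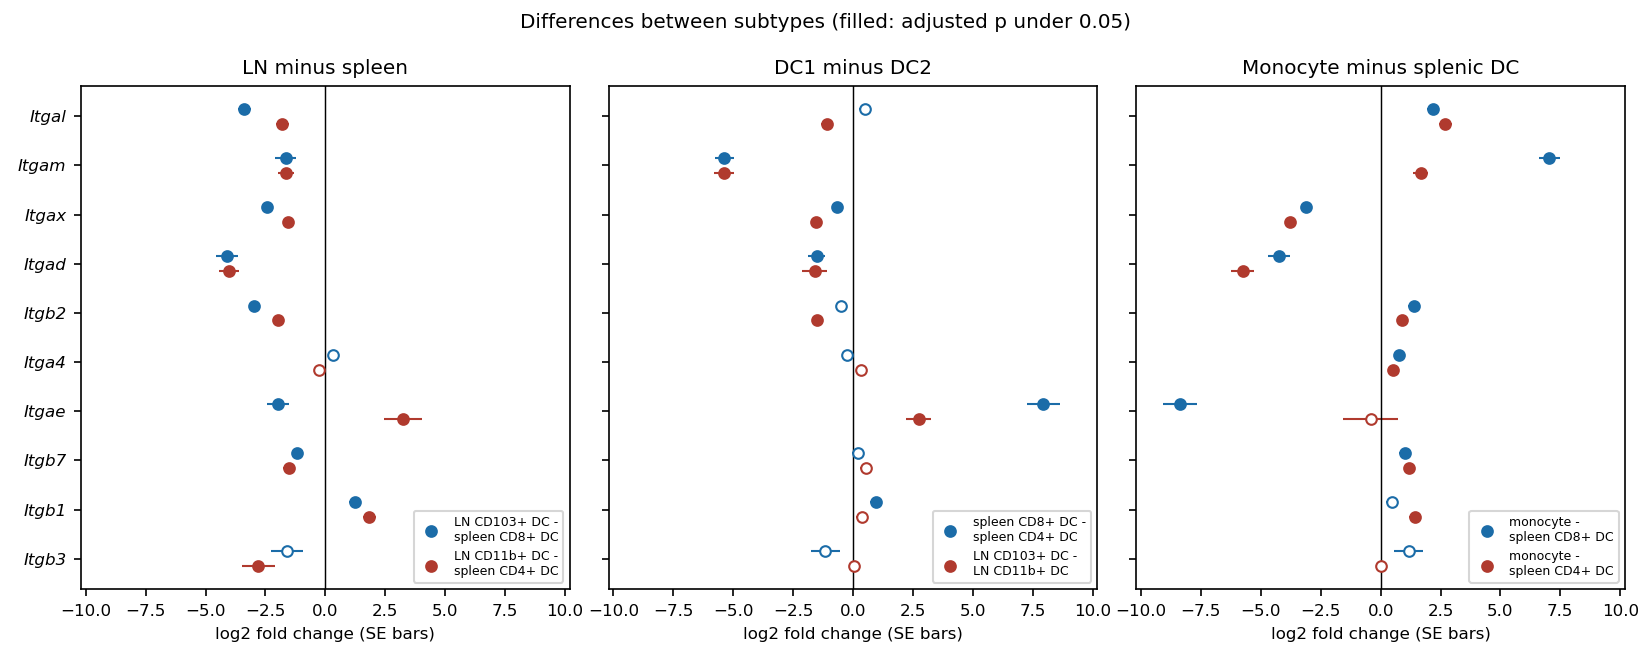
Log2 differences of the 10 integrin genes for LN minus spleen in each DC lineage, DC1 minus DC2 in each organ, and monocytes minus each splenic DC group. Bars are standard errors (none drawn for differences under 0.1) and filled points have an adjusted p under 0.05. In the first panel Itgb1 stands at 1.23 and 1.84, to the right of 0, and Itgb2 at -2.98 and -1.98, to the left.

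Lineage divided fewer members than organ, and the same order held for all genes. By organ, 45.6% of all genes were called in DC1 and 33.1% in DC2, above the lineage shares that follow. In the spleen, CD8+ against CD4+ DCs gave Itgae and Itgb1 higher, Itgam, Itgax and Itgad lower and 5 members not called, against 27.4% of all genes called. In the LN, CD103+ against CD11b+ DCs gave Itgae higher and Itgam, Itgax, Itgal, Itgad and Itgb2 lower, 6 of 10, against 12.9% of all genes. Itgam in both organs and Itgae in the LN lie along the gates, so the sort fixed these calls. They carry no weight beside the share of all genes. Itgax was lower in DC1 in both organs, by -0.66 ± 0.182 in the spleen (adjusted p = 0.0112) and -1.52 ± 0.186 in the LN (adjusted p = 1.69e-05), as was Itgad (-1.52 ± 0.366, adjusted p = 0.0045, and -1.61 ± 0.507, adjusted p = 0.0435). The Itgad difference in the LN, between 1.04 ± 0.228 and 3.14 ± 1.22 CPM, was lost in fits without any of the LN CD103+ libraries, LN CD11b+ replicate 1 or 2 or monocyte replicate 1, with adjusted p up to 0.139.

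Whether the lineage difference itself varied with organ was tested with the interaction term, the DC1 minus DC2 difference in the LN less that in the spleen. It passed for 4 members, where 11.2% of all genes passed, and was negative in each. Itgal had -1.58 ± 0.363 (adjusted p = 0.00759), since it was not separated by lineage in the spleen and was lower in DC1 in the LN. Itgb2 had -1.001 ± 0.297 (adjusted p = 0.0352) and Itgax -0.87 ± 0.257 (adjusted p = 0.0356). Itgae had -5.22 ± 0.882 (adjusted p = 0.000662), a fitted value that depends on the 8 counts of splenic CD4+ DCs. For Itgam the interaction was -0.003 (adjusted p = 1.00), and for Itgad -0.09 (adjusted p = 0.957). The count fell to 2 without splenic CD8+ replicate 2, LN CD103+ replicate 2 or 3, or LN CD11b+ replicate 1, while Itgal passed under all 22 alternatives.

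**Figure D4:**
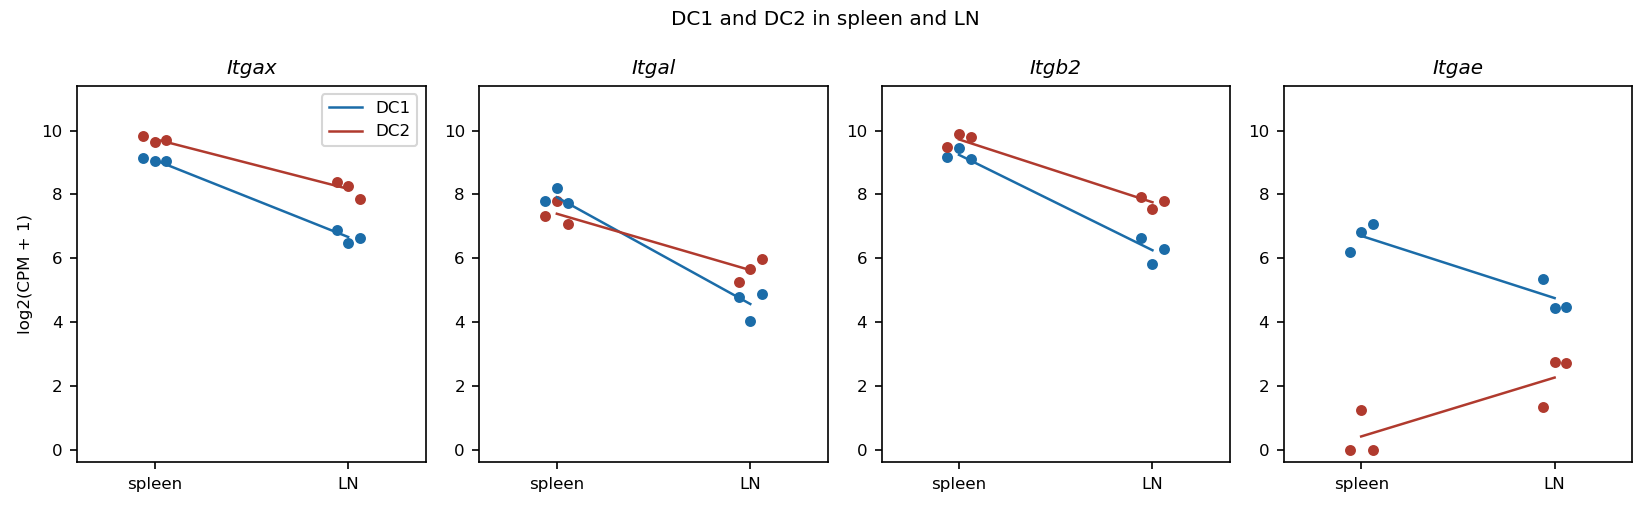
Levels of Itgax, Itgal, Itgb2 and Itgae in DC1 and DC2 of the spleen and the LN, as log2(CPM + 1), with points for libraries and lines joining the means. The Itgal means cross, with DC1 at 242 and DC2 at 171 CPM in the spleen and 23.4 and 49.5 CPM in the LN.

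Against splenic CD8+ DCs, 5 members were higher and 3 lower (42.1% of all genes called), against splenic CD4+ DCs 6 and 2 (48%), against LN CD103+ DCs 6 and 3 (53.2%) and against LN CD11b+ DCs 6 and 3 (47.8%). Itgam, Itgal, Itgb2, Itgb7 and Itga4 were higher in all 4 comparisons and Itgax was lower in all 4. Monocytes were enriched by CD11b and DCs by CD11c, so the Itgam and Itgax calls partly describe the sort. For Itgam, Itgal and Itgb2 the excess was greatest over LN CD103+ DCs, with log2 differences of 8.70, 5.57 and 4.35 (adjusted p = 3.36e-11, 3.77e-11 and 3.98e-11). For Itgb7 and Itga4 it was greatest over LN CD11b+ DCs (2.71, adjusted p = 4.18e-08, and 0.78, adjusted p = 0.00118). Itgb1 was higher in monocytes than in splenic CD4+ DCs (1.42 ± 0.256, adjusted p = 0.000172), was not separated from splenic CD8+ or LN CD11b+ DCs, and was lower than in LN CD103+ DCs (-0.77, adjusted p = 0.0149, or 0.0573 without monocyte replicate 1).

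Of 17 other integrin subunits, 11 were tested and 10 differed over the subtypes, where 73.5% of all genes did. In LN CD11b+ against splenic CD4+ DCs 7 were higher and 1 lower (33.1% of all genes called). In LN CD103+ against splenic CD8+ DCs 4 were higher and 3 lower (45.6%). Itgb8 had 347 ± 50.2 and 59.1 ± 11.2 CPM in LN CD103+ and CD11b+ DCs, 3 and 2 counts in all in splenic CD8+ and CD4+ DCs and 0 counts in monocytes. Itgb5, another αV partner, had 115 ± 6.02 and 71.7 ± 20.1 CPM in the LN groups, 9.03 ± 4.14 in splenic CD8+ DCs (log2 difference of LN CD103+ minus these 3.67, adjusted p = 1.26e-08) and was highest in monocytes at 209 ± 34.5. The αV chain Itgav was itself lower in LN than in splenic DCs, at 62.2 ± 15.5 against 108 ± 22.5 CPM in DC1 (-0.79, adjusted p = 0.00946) and 75.9 ± 6.81 against 172 ± 52.6 in DC2 (-1.18, adjusted p = 0.000679). Among partners of β1, Itga5, the fibronectin receptor chain, had 50.9 ± 8.16 and 62.3 ± 12.3 CPM in LN CD103+ and CD11b+ DCs, 18.9 ± 5.34 and 8.31 ± 2.21 in splenic CD8+ and CD4+ DCs and 113 ± 19.2 in monocytes. Itga8 was found mainly in splenic CD8+ DCs (51.4 ± 16.6 CPM, LN CD103+ minus these -4.59, adjusted p = 6.66e-08). Itga1, a collagen receptor chain, had 24.4 ± 2.77 CPM there but 2 counts in all in splenic CD4+ DCs (adjusted p = 1.26e-08). Its level was 31.4 ± 6.05 CPM in monocytes, and 20.1 ± 5.06 and 10.8 ± 2.53 in LN CD103+ and CD11b+ DCs. Itgb2l, a relative of Itgb2, had 22.2 ± 6.64 CPM in LN CD103+ DCs and at most 1.04 ± 0.496 in any other subtype.

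Of 10 tested ligands and counter-receptors of these integrins, 9 differed over the subtypes, where 73.5% of all genes did. In LN CD103+ against splenic CD8+ DCs 5 were higher, 0 lower and 5 not called (45.6% of all genes called). In LN CD11b+ against splenic CD4+ DCs 7 were higher, 1 lower and 2 not called (33.1%). The median log2 differences were 2.34 and 2.53, where those of all genes were 0.005 and 0.05. Icam1, the main LFA-1 ligand, had 809 ± 120.5 and 554 ± 71.6 CPM in LN CD103+ and CD11b+ DCs, 214 ± 97.7 and 153 ± 62.4 in splenic CD8+ and CD4+ DCs and 150.4 ± 4.10 in monocytes (DC1 pair 1.92, adjusted p = 3.37e-05). F11r (JAM-A), a junction protein that also binds LFA-1, had 442 ± 40.4 and 221 ± 21.7 CPM in the LN groups against 1.23 ± 0.650 and 25.6 ± 5.83 in splenic CD8+ and CD4+ DCs (8.44, adjusted p = 3.64e-11, and 3.12, adjusted p = 7.74e-08). Vcam1, the VLA-4 ligand, had 122 ± 22.4 to 321 ± 13.2 CPM in the DC groups and 7.90 ± 2.76 in monocytes (monocytes minus splenic CD4+ DCs -5.31, adjusted p = 3.97e-11). Fibronectin (Fn1), at 3848 ± 829 CPM, and thrombospondin 1 (Thbs1), at 636 ± 103, were monocyte transcripts, with at most 115 ± 19.4 and 15.2 ± 6.91 in DCs. Cdh1, encoding the CD103 ligand E-cadherin, lay at 0.722 ± 0.691 to 2.01 ± 1.13 CPM.

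Integrins bind firmly only after talin and kindlin have bound the β tail, steps set off through the GTPase Rap1. Of 20 tested genes of this machinery all 20 differed over the subtypes, where 73.5% of all genes did. Monocytes had 14 higher and 1 lower against splenic CD8+ DCs (42.1% of all genes called) and 10 and 4 against splenic CD4+ DCs (48%). The organ pairs gave 5 higher and 8 lower in DC1 (45.6%) and 3 and 10 in DC2 (33.1%). Kindlin-3 (Fermt3), the kindlin of blood cells, had 209.8 ± 52.3 and 309 ± 55.0 CPM in LN CD103+ and CD11b+ DCs against 651 ± 161 and 717 ± 241 in splenic CD8+ and CD4+ DCs (-1.63, adjusted p = 3.51e-05, and -1.22, adjusted p = 0.00095) and 659.9 ± 38.5 in monocytes. Talin 1 (Tln1) ranged from 487 ± 72.8 CPM in LN CD11b+ DCs to 1418 ± 3.06 in monocytes. Rasgrp2, an exchange factor for Rap1, had 129 ± 10.7 CPM in monocytes and 5.38 ± 2.45 to 8.65 ± 2.89 in DCs (monocytes minus splenic CD8+ DCs 4.57, adjusted p = 3.07e-09), and Rasa3, which turns Rap1 off, was also highest there at 778 ± 22.9. Cyth1 (cytohesin-1), which binds the β2 tail, was higher in the LN, with 165 ± 41.5 CPM in CD103+ and 119 ± 20.2 in CD11b+ DCs (LN minus spleen 1.68, adjusted p = 5.84e-05, and 2.04, adjusted p = 1.69e-05). The adaptor Skap1, best known from T cells, had 23.5 ± 1.79 and 21.1 ± 16.8 CPM in the LN groups and at most 0.801 ± 1.11 elsewhere, beside the T cell markers given above.

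All 18 tested genes of signalling and adhesion complexes differed over the subtypes, where 73.5% of all genes did. In monocytes 12 were higher and 3 lower than in splenic CD4+ DCs (48% of all genes called). Between organs the counts were not one-sided. The DC1 pair gave 6 higher and 6 lower (45.6%) and the DC2 pair 4 and 5 (33.1%). The kinase Fgr, which acts downstream of β2 integrins in myeloid cells, followed the order of Itgam, with 1039 ± 65.7 CPM in monocytes, 632 ± 170.3 in splenic CD4+, 187 ± 25.6 in LN CD11b+ and 92.2 ± 39.9 in splenic CD8+ DCs. It was lower in DC1 than in DC2 in both organs (-2.78 in the spleen and -3.12 in the LN, adjusted p = 1.15e-06 in each). Src was highest in LN CD103+ DCs at 126 ± 31.6 CPM, against 3.48 ± 2.37 in splenic CD8+ DCs (5.18, adjusted p = 4.4e-08), and γ-parvin (Parvg) was lower in them, at 8.39 ± 3.54 against 156 ± 78.6 CPM (-4.23, adjusted p = 2.19e-06).

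The genes Itgal, Itgam, Itgax and Itgad lie in 1 stretch of chromosome 7 (127296260 to 128223816, mm10) with 51 genes, of which 39 were tested, and the last 3 are adjacent. Of the 35 tested neighbours, 18 differed over the subtypes (73.5% of all genes did). In the DC1 pair of LN against spleen, 8 neighbours were higher and 4 lower, where 45.6% of all genes were called. In the DC2 pair 10 were higher and 1 lower, where 33.1% were called. Prr14 rose in both (2.25, adjusted p = 3.34e-07, and 1.57, adjusted p = 3.45e-05), from 33.6 ± 4.76 and 44.7 ± 16.6 CPM in splenic CD8+ and CD4+ DCs. Pycard, the inflammasome adaptor nearest to Itgam, fell in DC1 (-0.69, adjusted p = 0.00903) and was highest in monocytes at 97.4 ± 11.7 CPM.

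For each member the gene whose pattern was most alike was found from the root mean square (RMS) difference in log2 CPM over the 15 libraries, after centring each gene on its mean. This was Abca9 for Itgam (RMS 0.81), H2-Aa for Itgax (0.29), Zcchc24 for Itgal (0.54), Tspan9 for Itgad (0.65), Gm4524 for Itgae (1.10), Zfp384 for Itga4 (0.13), Arf4 for Itgb1 (0.18), Cyth4 for Itgb2 (0.27), Gpc2 for Itgb3 (0.63) and Rasgrp4 for Itgb7 (0.28). The median over all genes was 0.775 for Itga4 and between 1.09 and 3.42 for the other members, so the flat Itga4 was close to most genes. Among the members themselves, Itgal and Itgb2 were nearest to each other (0.70), with Itgb2 ranked 14 of all genes for Itgal. For Itgb2 itself, Itgal ranked 117. For Itga4 the nearest member was Itgb7 (0.845, rank 7921), and for Itgb7 it was Itga4 (0.845, rank 1911). It was Itga4 for Itgb1 (0.855, rank 3239) and Itgb7 for Itgb3 (0.973, rank 126). Itgax and Itgad stood at 1.05, where Itgax ranked 57 for Itgad and Itgad 673 for Itgax. The nearest member was Itgb2 for Itgam (2.391, rank 300) and Itgb1 for Itgae (2.955, rank 2823).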

How the data were processed

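The deposited table holds whole-number read counts for 38924 mouse genes in 15 libraries and TPM that the authors derived from those counts and exon length. Per the labels and the study's methods, poly-A RNA was amplified and sequenced on an Ion Torrent instrument, reads were mapped to mm10 with STAR 2.4.0j, and uniquely mapped reads were counted over Ensembl 75 genes by featureCounts (Subread 1.5.2) without strand, at a minimum overlap of 0.5 of the read. A read over several genes was counted for each, so overlapping genes share reads. Monocyte libraries were sequenced in 2 runs that were summed.

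The filter kept 14456 genes (above 1 CPM in 3 or more of the libraries), which were scaled by TMM (factors 0.883 to 1.1) and fitted with 1 mean per subtype by edgeR 4.0.16 quasi-likelihood (R 4.3.3). All 15 libraries shared 1 estimate of the spread, with 10 residual degrees of freedom. An F test over the 5 subtypes, the 10 pairwise comparisons and the lineage by organ interaction were tested, each with p-values adjusted by Benjamini-Hochberg over all tested genes at 0.05. An exact permutation test of 3 libraries against 3 cannot go below 0.1. Fold ratios are of mean CPM and log2 differences are fitted. Levels were compared between genes only as TPM. Total counts were 4531243 to 10233914 per library, and an interval was given only as SD or standard error over libraries.

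DESeq2 1.42.0, its size factors, other filters, limma 3.58.1 on log2 TPM, a replicate block and leaving out each library were the alternatives. The members and gene lists were chosen with earlier results of these data known. All members were named. Other genes were named from the lists when among the 3 largest changes each way in a comparison, past the threshold, with at least 10 CPM in the higher subtype and no overlap between libraries. Tln1, Cdh1 and the levels of named genes in further subtypes were added after values were seen. No replicate pair agreed within sampling noise (chi-square per gene 4.957 to 50.671). The labels number the libraries 1 to 3 in each subtype without saying what a number shares. Deviations of same-numbered libraries from their subtype means correlated above 0.1 for all 3 numbers in 4 of 10 subtype pairs (0.117 to 0.375), namely between the splenic DC groups, between the LN groups and between splenic CD4+ DCs and each LN group, and were near 0 with monocytes. Any pairing by number is read from these data and not from the labels. The main fit used no pairing, and the replicate block was only an alternative. Promoter windows are from RefSeq.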

Additional observations from a re-analysis of the deposited data

Results flagged for a closer look

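The DC1 minus DC2 difference varied with organ for 4 integrin genes by the interaction term itself (log2, LN less spleen, edgeR quasi-likelihood). The values were -5.216 for Itgae (adjusted p = 0.000662), -1.58 for Itgal (adjusted p = 0.00759), -1.001 for Itgb2 (adjusted p = 0.0352) and -0.867 for Itgax (adjusted p = 0.0356). In each, the LN DC1 population lay lower relative to its DC2 counterpart than the splenic DC1 population did. The Itgax call was lost under 10 of 22 alternatives and that of Itgb2 under 6, while Itgal and Itgae kept theirs under all 22. The Itgae value was -9.883 without splenic CD4+ replicate 2, which held all 8 counts of that group, and is no bound since it depends on the prior count.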

How the results depend on the processing

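Of 2420 member results under the alternatives, 2361 kept their side of the threshold, 41 lost the call, 18 gained it and 0 called results reversed. Among the 2361 are 42 values, not called in either fit, whose sign changed, the largest being Itgae in monocytes minus splenic CD4+ DCs (4.254 without splenic CD4+ replicate 2, against -0.417). Among fits without 1 library, members past the threshold in the interaction numbered 2 to 4, against 4 with all libraries (2 without splenic CD8+ replicate 2, LN CD103+ replicate 2, LN CD103+ replicate 3 or LN CD11b+ replicate 1). All genes past it between the LN lineages numbered 1216 to 2171, against 1872 (1216 without LN CD103+ replicate 2). The cause was not tested. The Itgb2 interaction lay between -1.215 and -0.81 (adjusted p 0.0131 to 0.106) and that of Itgax between -1.005 and -0.756 (0.0141 to 0.107, and 0.0731 with no filter). Itgal between the LN lineages was -0.844 and not called without LN CD103+ replicate 2, and Itgb3 between the splenic DC groups was called with no filter (-1.153, adjusted p = 0.0279). Itgb1 between LN CD11b+ and splenic CD8+ DCs was not called without splenic CD8+ replicate 1 (0.697) or 2 (0.759). With the replicate number as a block, no call changed in 110 of 110 member results, 4 members passed in the interaction, and genes past the threshold between the LN lineages numbered 2339. The shares of α and β chains moved by less than 1 SD in 80 of 80 and 140 of 140 alternatives, those for β chains chosen after seeing the data. Depth limits Itgae in splenic CD4+ DCs and monocytes, Itgad in monocytes and Itgb3 in the LN.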
